A study of Homo sapiens with 12 samples.

Results

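The ID genes (ID1, ID2, ID3, ID4), the bone morphogenetic protein (BMP) ligands BMP2 and BMP4, the inhibitory SMAD gene SMAD6 and the secreted antagonists GREM1 (gremlin) and FST (follistatin) were followed in all 12 RNA sequencing libraries of the study. The 9 genes were found by gene name among 32152 genes with a value in the table, of which 17665 are protein coding. Values are RPKM, reads scaled to transcript length and to library size, so levels can be set side by side between genes as well as between libraries. Of the 9 genes, 7 passed the filter for testing (2 or more libraries at 0.5 RPKM or above), as did 13737 protein coding genes in all, and ID4 and GREM1 did not pass.

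RNA came from 2 triple-negative breast cancer lines of mesenchymal character, MDA-MB-231 and Hs-578T, in culture, with 2 libraries for each of 6 groups. In each line the groups were unmodified parental cells, cells labelled ERK5-ko, and cells labelled MEK5DD. ERK5 is the kinase encoded by MAPK7, and the ERK5-ko cells were made by CRISPR/Cas9 with guides to MAPK7 and selection of single cells, with 1 clone surviving in MDA-MB-231 and the sequenced Hs-578T clone not stated in the methods read here. MEK5 (gene MAP2K5) is the kinase directly above ERK5, and MEK5DD is a version of it that is always on. The 2 libraries of a group carry neighbouring passage numbers. Parental libraries are labelled passage 29 and 30 (MDA-MB-231) and 83 and 84 (Hs-578T), and those of modified cells passage 7 to 11. The study's methods give higher passages than 7 to 11 for the cells from which the ERK5-ko lines were made. The labels of ERK5-ko and parental cells are therefore not on one count, and they do not show which cells were passaged longer. Genotype and passage history cannot be told apart in any comparison with parental cells. For ERK5-ko cells, the clone and the selection of single cells cannot be told apart from genotype either.

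BMP ligands bind pairs of type I and type II serine/threonine kinase receptors, which phosphorylate SMAD1, SMAD5 and SMAD9. These proteins enter the nucleus with SMAD4, where ID1, ID2 and ID3 are among the best known direct targets. SMAD6 is induced by the pathway and inhibits it from within the cell. Gremlin and noggin hold BMP ligands outside the cell, and follistatin binds activins tightly and some BMPs less tightly. ID proteins are helix-loop-helix proteins without a DNA-binding region: they pair with E proteins and keep them off DNA, and in breast cancer ID1 and ID3 have been linked to growth of metastases.

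Promoters are shown for the genes on which the results turn, from 250 bases before to 50 bases after the RefSeq start site (GRCh38.p14), written 5′ to 3′ on the strand of the gene. Capitals mark exact matches to 7 motifs searched on both strands: the TATA box (TATAAA), the CCAAT box (CCAAT), the cyclic AMP response element half-site (TGACGT), the AP-1 site (TGANTCA), the GC-rich SMAD element (GGCGCC), the palindromic SMAD-binding element (GTCTAGAC) and the MEF2 site, MEF2 proteins being known substrates of ERK5. RefSeq promoter entries were at hand for 8 of the 9 genes, all but BMP2, and BMP4 has 3 entries, of which the first is shown.
FST, chr5:53480379-53480678, + strand: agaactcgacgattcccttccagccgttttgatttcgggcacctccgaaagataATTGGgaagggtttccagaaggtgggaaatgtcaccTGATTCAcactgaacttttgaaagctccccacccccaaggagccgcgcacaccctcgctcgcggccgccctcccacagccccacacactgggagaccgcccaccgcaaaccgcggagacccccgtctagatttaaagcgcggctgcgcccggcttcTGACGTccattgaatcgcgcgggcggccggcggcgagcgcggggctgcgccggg
BMP4, chr14:53955001-53955300, − strand: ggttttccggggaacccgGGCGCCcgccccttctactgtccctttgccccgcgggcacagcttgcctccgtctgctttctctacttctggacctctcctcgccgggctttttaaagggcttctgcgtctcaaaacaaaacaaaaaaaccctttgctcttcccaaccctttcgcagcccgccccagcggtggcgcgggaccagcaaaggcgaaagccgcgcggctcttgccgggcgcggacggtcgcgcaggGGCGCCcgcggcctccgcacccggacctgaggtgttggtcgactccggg
ID1, chr20:31605039-31605338, + strand: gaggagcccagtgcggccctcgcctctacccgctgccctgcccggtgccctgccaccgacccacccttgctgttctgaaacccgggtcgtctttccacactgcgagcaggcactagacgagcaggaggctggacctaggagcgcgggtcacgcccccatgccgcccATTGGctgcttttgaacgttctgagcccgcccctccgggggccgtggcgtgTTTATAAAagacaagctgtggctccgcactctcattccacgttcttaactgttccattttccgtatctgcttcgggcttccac
SMAD6, chr15:66701986-66702285, + strand: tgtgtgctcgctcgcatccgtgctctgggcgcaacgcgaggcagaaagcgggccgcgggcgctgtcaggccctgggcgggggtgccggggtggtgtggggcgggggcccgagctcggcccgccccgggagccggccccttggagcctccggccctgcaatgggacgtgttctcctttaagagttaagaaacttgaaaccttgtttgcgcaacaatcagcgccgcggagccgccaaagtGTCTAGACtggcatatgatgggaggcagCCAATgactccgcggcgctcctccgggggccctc

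The FST window holds a CCAAT box on the reverse strand, an AP-1 site and a cyclic AMP half-site, the last beginning 4 bases before the start. The BMP4 window holds 2 GC-rich SMAD elements. In the ID1 window the capitals near the start are a TATA box that reads on both strands, overlapping itself. The SMAD6 window holds the palindromic SMAD element 12 bases before the start, a motif found in 71 of 35116 promoters (0.202%). For comparison, the other motifs were found in 11.5% (TATA), 34.6% (CCAAT), 7.98% (cyclic AMP half-site), 7.71% (AP-1), 19.2% (GC-rich SMAD element) and 2.99% (MEF2) of all promoters. None of the 11 entries of the 8 genes held a MEF2 match. A match describes these letters only and is not a measured binding site.

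Libraries held 20248162 to 27791195 reads, totals that were recovered from the RPKM values themselves. MAP2K5 was at 188.5 and 183.8 RPKM in the MDA-MB-231 libraries labelled MEK5DD against 12.9 and 13.6 in parental cells. In Hs-578T the rise was far smaller, at 21.3 and 23.8 against 14.6 and 16.9. The MEK5DD groups of the lines are therefore not alike in MAP2K5 RNA. The ERK5-ko libraries held no less MAPK7 RNA than the parental ones (16.3 and 17.8 RPKM against 13.3 and 14.3 in MDA-MB-231, 17.8 and 18.1 against 13.97 and 15.98 in Hs-578T), so the RNA does not check that label and every direction below refers to the labels. The study examined ERK5 loss as protein, by Western blot, which was not analysed here. The estrogen and progesterone receptor genes stayed at or below 0.348 RPKM in all libraries and ERBB2 (HER2) was at 27.8 to 56.9 RPKM, while vimentin (VIM), the mesenchymal filament, was at 1598 to 4067 RPKM. Replicates differed most among Hs-578T parental and Hs-578T MEK5DD cells, with a chi-square per degree of freedom of their reads of 30.7 and 41.9, against 2.81 to 8.78 in the other groups.

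**Figure D1:**
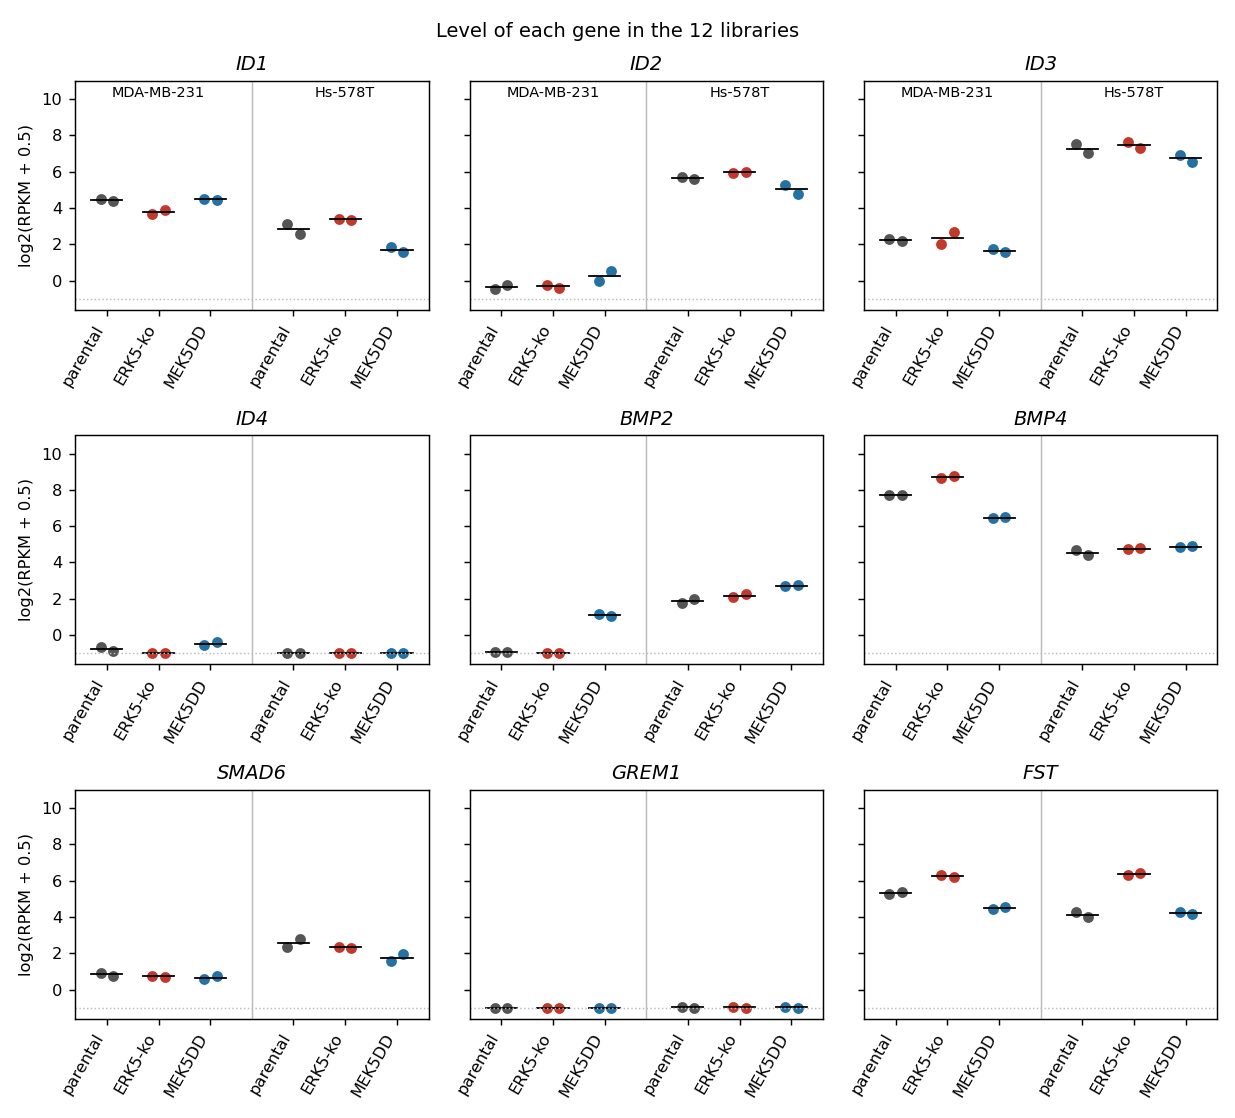
Level of each of the 9 genes in the 12 libraries, as log2(RPKM + 0.5), by cell line and group. Points are single libraries, short lines their mean, and the dotted line marks 0 RPKM. ID2 and ID3 stand high in Hs-578T, BMP4 stands high in MDA-MB-231, and GREM1 and, in Hs-578T, ID4 lie on the dotted line.

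The parental lines differed in all 7 tested genes (7 called of 7, where 49.5% of all tested genes were called). Here a gene is called at an adjusted p under 0.05 together with a fold above 1.5 or below 0.5. ID1, BMP4 and FST were higher in MDA-MB-231 than in Hs-578T, with log2 fold changes of 1.59 (SE 0.162, adjusted p = 2.706e-06), 3.18 (SE 0.0959, adjusted p = 4.732e-11) and 1.19 (SE 0.109, adjusted p = 1.042e-06). ID2, ID3, BMP2 and SMAD6 were lower, by −6.00 (SE 0.1999, adjusted p = 1.093e-10), −5.00 (SE 0.223, adjusted p = 1.504e-09), −2.84 (SE 0.112, adjusted p = 5.084e-10) and −1.73 (SE 0.163, adjusted p = 1.388e-06). The median over all tested genes was 0.19 in this comparison, and −0.02 after median-ratio scaling or 0.08 after quantile normalization.

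The ID family was made up differently in the lines. ID1 to ID4 summed to 16.2 to 27.2 RPKM in the 6 MDA-MB-231 libraries and to 123 to 269 RPKM in the 6 Hs-578T libraries. ID1 was 69.8% to 86.2% of that sum in MDA-MB-231 and 1.87% to 4.196% in Hs-578T. ID3 made up 68.6% to 76.1% of the sum in Hs-578T, and ID2 another 21.5% to 27.2%. No library of one line overlapped the other in any of these shares.

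**Figure D2:**
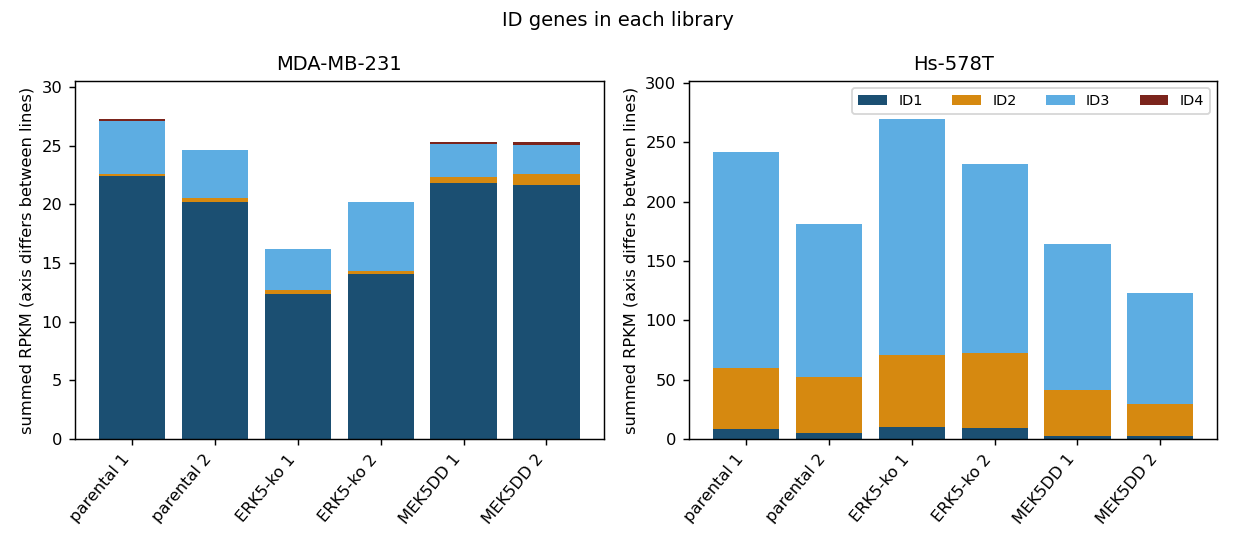
Summed RPKM of ID1, ID2, ID3 and ID4 in each library, with MDA-MB-231 on the left and Hs-578T on the right on axes of different range. Bars are single libraries. ID1 fills most of each MDA-MB-231 bar and ID3 most of each Hs-578T bar, and the lowest Hs-578T bars are the MEK5DD libraries at 164 and 123 RPKM.

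Within the lines, the ERK5-ko and MEK5DD groups were each compared with the same parental libraries, so these comparisons share their controls and are given side by side. Between ERK5-ko and parental cells, 2 of the 7 tested genes were called in MDA-MB-231, BMP4 and FST, both higher, where 3.87% of all tested genes were called. In Hs-578T, 1 was called, FST, again higher, where 12.6% of all tested genes were called. Between MEK5DD and parental cells, 3 were called in MDA-MB-231, ID2 and BMP2 higher and BMP4 lower, where 13.9% of all tested genes were called. In Hs-578T, 2 were called, BMP2 higher and ID1 lower, where 4.38% of all tested genes were called. The ERK5-ko and MEK5DD groups of one line differed in 4 of the 7 genes in MDA-MB-231 (BMP4, FST and ID3 higher and BMP2 lower in ERK5-ko), where 23.6% of all tested genes were called. In Hs-578T they differed in another set of 4 (ID1, ID2, ID3 and FST, all higher in ERK5-ko), where 19.3% of all tested genes were called and 15.3% called higher. In bulk RNA a higher level can mean more expressing cells or more RNA per cell, and these cannot be told apart.

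**Figure D3:**
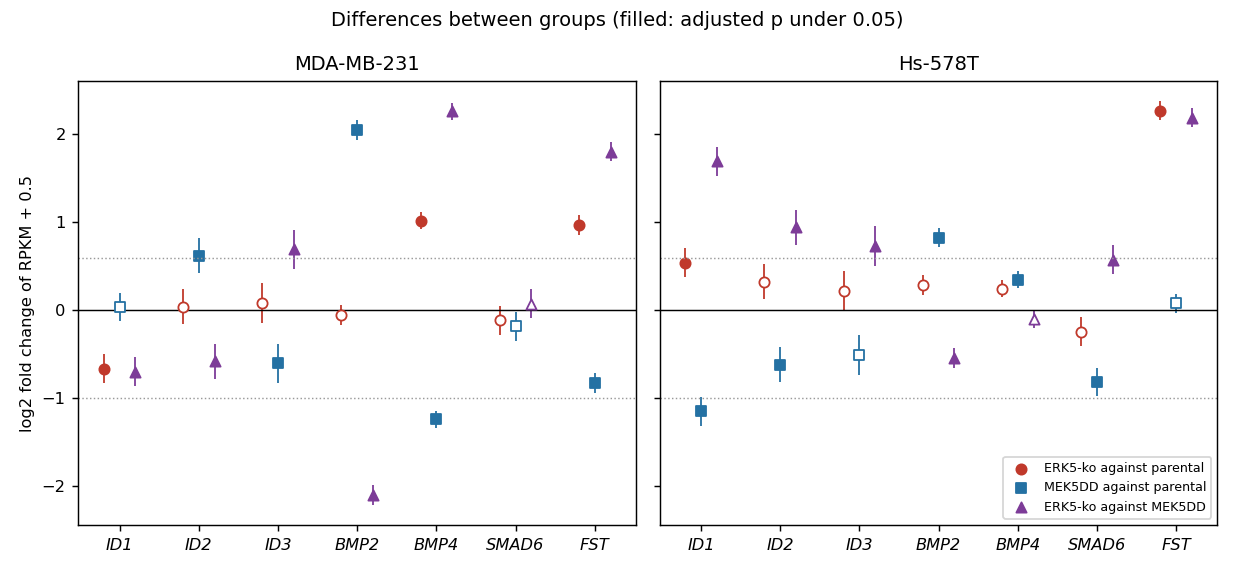
Log2 fold change of RPKM + 0.5 for the 7 tested genes in each line, with bars of 1 standard error, from limma. Circles are ERK5-ko against parental, squares MEK5DD against parental and triangles ERK5-ko against MEK5DD, filled at an adjusted p under 0.05, with dotted lines at the fold limits of 1.5 and 0.5. FST lies near 2 in Hs-578T ERK5-ko, and BMP4 lies on opposite sides of 0 for ERK5-ko and MEK5DD in MDA-MB-231.

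BMP4 was by far the more abundant of the ligand pair. In MDA-MB-231 it was at 210 and 209 RPKM in parental cells, 407 and 442 in ERK5-ko and 86.5 and 90.2 in MEK5DD. The 3 groups did not overlap, with ERK5-ko highest and MEK5DD lowest. BMP4 rose in ERK5-ko by 1.02 on the log2 scale (SE 0.0959, adjusted p = 4.776e-05), a 2.03-fold ratio of means, and fell in MEK5DD (−1.24, SE 0.0959, adjusted p = 1.353e-06), a level 2.37-fold lower. Between ERK5-ko and MEK5DD the ratio of means was 4.80 (log2 fold change 2.26, SE 0.0959, adjusted p = 5.993e-09).

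In Hs-578T, BMP4 lay lower and moved little. It was at 24.8 and 20.6 RPKM in parental cells, 26.4 and 27.1 in ERK5-ko and 28.4 and 29.2 in MEK5DD. The parental libraries were the lowest and the groups did not overlap. The difference was 0.34 in MEK5DD (SE 0.0959, adjusted p = 0.0242), short of a 1.5-fold change, and without the second parental library its adjusted p was 0.163. For ERK5-ko the adjusted p was 0.0687, and 0.0471 in a fit with replicate blocks (log2 fold change 0.24 in both fits), and ERK5-ko against MEK5DD gave 0.390.

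BMP2 was nearly undetected in MDA-MB-231 except in MEK5DD. It was at 0.0225 and 0.0200 RPKM in parental cells (2 reads in each library), at 0 reads in both ERK5-ko libraries, and at 1.74 and 1.54 RPKM in MEK5DD (151 and 154 reads). A count of 0 allows up to 3 reads, or 0.0369 and 0.0334 RPKM in these libraries. The MEK5DD libraries held 305 reads against 4 in parental cells, a ratio of 77.3 after scaling to library size (exact 95% interval 29.9 to 286, covering counting error only), and ERK5-ko was at least 46.8-fold lower than MEK5DD, taking 3 reads per library as the floor. BMP2 rose in MEK5DD by 2.04 (SE 0.112, adjusted p = 8.614e-08) on the log2(RPKM + 0.5) scale, which compresses changes of low genes, and between ERK5-ko and parental cells the adjusted p was 0.784.

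In Hs-578T, BMP2 was detected in every library. It was at 2.97 and 3.51 RPKM in parental cells, 3.79 and 4.28 in ERK5-ko and 6.04 and 6.15 in MEK5DD. MEK5DD was highest and no groups overlapped. BMP2 rose in MEK5DD by 0.82 (SE 0.112, adjusted p = 0.000507), a 1.88-fold ratio of means, and was lower in ERK5-ko than in MEK5DD by −0.54 (SE 0.112, adjusted p = 0.00209), within the fold limits. For ERK5-ko against parental cells the adjusted p was 0.0681. Thus the ligand that rose in MEK5DD in both lines was BMP2, the less abundant of the pair. BMP2 and BMP4 together came to 209 to 210 RPKM in MDA-MB-231 parental cells, 407 to 442 in ERK5-ko and 88.3 to 91.8 in MEK5DD. In Hs-578T the sum was 24.1 to 27.8 RPKM in parental cells, 30.2 to 31.4 in ERK5-ko and 34.4 to 35.4 in MEK5DD, so MEK5DD was lowest in MDA-MB-231 and highest in Hs-578T.

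The machinery that reads BMP ligands was present in both lines. Of the type I receptors, ACVR1 was at 22.99 and 23.1 RPKM in MDA-MB-231 parental cells and 58.5 and 65.0 in Hs-578T parental cells, and BMPR1A at 7.06 and 7.12 and at 4.50 and 5.02. BMPR1B was at 0.619 and 0.461 RPKM in MDA-MB-231 parental cells and rose in ERK5-ko (1.43 and 1.16 RPKM, log2 fold change 0.79, SE 0.189, adjusted p = 0.0150). The type II receptor BMPR2 was at 13.8 and 12.9 RPKM in MDA-MB-231 parental cells and 7.28 and 12.03 in Hs-578T. Among the SMADs that carry the signal, SMAD5 was at 41.9 and 42.5 RPKM in MDA-MB-231 parental cells and 29.1 and 35.4 in Hs-578T, SMAD1 at 5.19 and 4.80 and at 11.04 and 10.6, and their common partner SMAD4 at 27.5 and 28.6 and at 30.2 and 28.7. In MDA-MB-231 MEK5DD, SMAD4 was at 16.03 and 15.3 RPKM, below every other library.

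SMAD6, the inhibitory member, was low in MDA-MB-231 and did not pass the test there. It was at 1.41 and 1.18 RPKM in parental cells, 1.20 and 1.10 in ERK5-ko and 0.984 and 1.16 in MEK5DD (adjusted p = 0.695 and 0.395 against parental cells). In Hs-578T it was at 4.67 and 6.31 RPKM in parental cells, 4.62 and 4.39 in ERK5-ko and 2.42 and 3.38 in MEK5DD, with MEK5DD below all other libraries of the line. SMAD6 fell in Hs-578T MEK5DD against parental cells (−0.82, SE 0.163, adjusted p = 0.00462), not past the 0.5-fold limit, and was higher in ERK5-ko than in MEK5DD by 0.57 (SE 0.163, adjusted p = 0.0128). Both differences had adjusted p-values of 0.0715 and 0.0774 when only the libraries of that line were fitted. The fall passed the fold limit without the first parental library (−1.02, adjusted p = 0.00354) or the second MEK5DD library (−1.02, adjusted p = 0.00177), and the second difference reached an adjusted p of 0.0687 and 0.0507 without either ERK5-ko library and 0.108 without the first MEK5DD library. For ERK5-ko against parental cells the adjusted p was 0.254.

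ID1, the main ID gene of MDA-MB-231, moved in opposite directions in ERK5-ko of the lines. In MDA-MB-231 it was at 22.4 and 20.2 RPKM in parental cells, 12.4 and 14.1 in ERK5-ko and 21.8 and 21.6 in MEK5DD. The ERK5-ko libraries lay below the other 4, while parental and MEK5DD overlapped. ID1 fell in ERK5-ko against parental cells by −0.67 (SE 0.162, adjusted p = 0.0159), a level 1.61-fold lower, and against MEK5DD by −0.70 (SE 0.162, adjusted p = 0.00320), neither past the 0.5-fold limit. Against parental cells the adjusted p was 0.127 without the first parental library, 0.0599 without the second and 0.115 without the first ERK5-ko library.

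In Hs-578T, ID1 was at 8.19 and 5.47 RPKM in parental cells, 10.2 and 9.73 in ERK5-ko and 3.06 and 2.45 in MEK5DD. The order was ERK5-ko, parental, MEK5DD, with no overlap but a wide gap between the parental libraries. ID1 fell in MEK5DD by −1.15 against parental cells (SE 0.162, adjusted p = 0.000621), a level 2.47-fold lower, and the fold limit was not reached without the first parental library (−0.88, adjusted p = 0.00276). It was higher in ERK5-ko than in MEK5DD by 1.69 (SE 0.162, adjusted p = 8.321e-06), a 3.61-fold ratio. Against parental cells ID1 rose in ERK5-ko by 0.54 (SE 0.162, adjusted p = 0.0214), short of 1.5-fold, with 0.27 (adjusted p = 0.163) without the second parental library and 0.81 (adjusted p = 0.00172) without the first. Without the first or second ERK5-ko library its adjusted p was 0.0993 or 0.0836.

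ID2 was at the edge of detection in MDA-MB-231, with 6 and 11 reads in parental cells, 9 and 7 in ERK5-ko and 13 and 30 in MEK5DD (0.216 and 0.353, 0.355 and 0.250, and 0.482 and 0.964 RPKM). Parental and ERK5-ko overlapped (adjusted p = 0.951). MEK5DD was higher than parental cells by 0.62 (SE 0.1999, adjusted p = 0.0279), but the adjusted p was 0.275 without the second MEK5DD library, 0.176 without the first parental library and 0.0919 on the recovered reads. In Hs-578T, ID2 was at 52.1 and 47.3 RPKM in parental cells, 61.1 and 63.0 in ERK5-ko and 38.4 and 26.8 in MEK5DD. The groups did not overlap, in the same order as for ID1. ID2 was higher in ERK5-ko than in MEK5DD by 0.94 (SE 0.1999, adjusted p = 0.00249) and fell in MEK5DD against parental cells by −0.62 (SE 0.1999, adjusted p = 0.0441), with adjusted p = 0.210 without the second MEK5DD library and 0.142 and 0.0790 without the first or second parental library. The fall of ID2 also did not pass with median-ratio scaling, quantile normalization, a pseudocount of 0.1 or only the libraries of that line. For ERK5-ko against parental cells the adjusted p was 0.228. ID2 overlaps the antisense gene ID2-AS1, and whether counting used strand is not given in the sources used here.

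ID3 was at 4.49 and 4.07 RPKM in MDA-MB-231 parental cells, 3.52 and 5.83 in ERK5-ko and 2.85 and 2.43 in MEK5DD. The ERK5-ko libraries lay on either side of the parental ones (adjusted p = 0.870) and MEK5DD lay lowest. MEK5DD was lower than parental cells by −0.61 (SE 0.223, adjusted p = 0.0474), with an adjusted p of 0.0937 to 0.215 without any 1 of the 4 libraries compared, and ERK5-ko was higher than MEK5DD by 0.69 (SE 0.223, adjusted p = 0.0209, and 0.228 without the second ERK5-ko library or 0.119 without the second MEK5DD library). In Hs-578T, ID3 was the most abundant ID gene, at 182 and 128 RPKM in parental cells, 198 and 159 in ERK5-ko and 123 and 93.4 in MEK5DD. The parental and ERK5-ko ranges overlapped and MEK5DD lay below both. ID3 was higher in ERK5-ko than in MEK5DD by 0.73 (SE 0.223, adjusted p = 0.0184, and 0.108 without the second MEK5DD library or 0.137 without the first ERK5-ko library). This call of ID3 was also lost with median-ratio scaling and with only the libraries of that line. Against parental cells the adjusted p was 0.472 for ERK5-ko and 0.123 for MEK5DD, the latter 0.0428 with the replicate block (log2 fold change −0.51 in both fits).

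ID4 was read in MDA-MB-231 parental cells (6 and 2 reads, 0.144 and 0.0428 RPKM) and MEK5DD (7 and 13 reads, 0.173 and 0.279 RPKM). Both MDA-MB-231 ERK5-ko libraries had 0 reads, at least 3.002-fold lower than MEK5DD with 3 reads per library as the floor and the MEK5DD reads taken as counted. Against parental cells no bound is given, since the second parental library had 2 reads, below that floor. All 6 Hs-578T libraries had 0 reads, which allows up to 0.0881 RPKM. In Hs-578T each of the 3 detected ID genes had its lowest values in MEK5DD. Against parental cells, ID3 did not pass the test there and the fall of ID2 did not pass under the alternatives given above. Of all 13737 tested genes, 2329 were lower and 884 higher in that comparison by the adjusted p alone. The share of all tested genes lowest in this group was not counted. The summed ID genes came to 181 to 242 RPKM in parental cells, 232 to 269 in ERK5-ko and 123 to 164 in MEK5DD.

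FST, which binds activins and some BMPs, rose in ERK5-ko in both lines. In MDA-MB-231 it was at 37.9 and 40.6 RPKM in parental cells, 80.4 and 73.9 in ERK5-ko and 21.0 and 22.8 in MEK5DD. As for BMP4, ERK5-ko was highest, MEK5DD lowest and no groups overlapped. FST rose in ERK5-ko by 0.96 (SE 0.109, adjusted p = 0.000181), a 1.97-fold ratio, and fell in MEK5DD (−0.83, SE 0.109, adjusted p = 9.286e-05), short of the 0.5-fold limit. ERK5-ko was 3.53-fold above MEK5DD (log2 fold change 1.79, SE 0.109, adjusted p = 1.062e-07).

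In Hs-578T, FST was at 18.6 and 15.3 RPKM in parental cells, 79.1 and 86.9 in ERK5-ko and 18.6 and 17.1 in MEK5DD. Only the ERK5-ko libraries stood apart, while parental and MEK5DD overlapped (adjusted p = 0.661). FST rose in ERK5-ko by 2.26 against parental cells (SE 0.109, adjusted p = 8.425e-08), a 4.89-fold ratio, and by 2.18 against MEK5DD (SE 0.109, adjusted p = 6.019e-08). Both lines reached a like level in ERK5-ko, 73.9 to 86.9 RPKM. The ratio of FST to BMP4 RPKM was 0.1806 and 0.1945 in MDA-MB-231 parental cells, 0.1977 and 0.1673 in ERK5-ko and 0.2422 and 0.2525 in MEK5DD, the highest. In Hs-578T it was 0.746 and 0.749 in parental cells, 2.99 and 3.21 in ERK5-ko and 0.585 and 0.657 in MEK5DD. GREM1 had 0 reads in all MDA-MB-231 libraries and at most 2 in any Hs-578T library, and 3 reads correspond to 0.0181 to 0.0249 RPKM. The noggin gene NOG was at 38.85 and 39.54 RPKM in MDA-MB-231 parental cells, 55.6 and 56.49 in ERK5-ko and 34.21 and 35.58 in MEK5DD. For ERK5-ko against parental cells its adjusted p was 0.0782. In Hs-578T, NOG was at or below 0.480 RPKM in every library.

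The change in 1 line was tested against that in the other. For ERK5-ko, 3 of the 7 genes were called in the difference (MDA-MB-231 minus Hs-578T), ID1, BMP4 and FST, where 20.7% of all tested genes were called. By the adjusted p alone the same 3 passed, where 39.8% of all tested genes passed, so the count lies near the background. Without the second Hs-578T parental library the ID1 difference was −0.93, within the fold limits. For MEK5DD, 5 were called, ID1, ID2, BMP2, BMP4 and SMAD6, where 22.2% of all tested genes were called. With FST, 6 passed by the adjusted p alone, where 39.6% of all tested genes passed. That of SMAD6 (adjusted p = 0.0484) did not pass under most of the alternatives tried, among them median-ratio scaling. ID1 thus differed between the lines in both comparisons, lower in MDA-MB-231 ERK5-ko and higher in Hs-578T ERK5-ko, and lower in MEK5DD in Hs-578T with an adjusted p of 0.909 in MDA-MB-231.

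Among 83 other genes of the pathway in 7 lists, 61 were tested. Against parental cells, 5 were called higher and 2 lower in MDA-MB-231 ERK5-ko, 6 and 4 in Hs-578T ERK5-ko, 9 and 6 in MDA-MB-231 MEK5DD, and 5 and 1 in Hs-578T MEK5DD. Of all tested genes, 3.87%, 12.6%, 13.9% and 4.38% were called in these comparisons in the same order. GDF5, a BMP-type ligand of joint formation, followed BMP4 in MDA-MB-231, rising in ERK5-ko (5.41 and 6.18 to 16.3 and 18.2 RPKM, log2 fold change 1.496, SE 0.176, adjusted p = 0.000245) and falling in MEK5DD (1.09 and 0.801 RPKM, −2.13, SE 0.176, adjusted p = 2.426e-06). In Hs-578T ERK5-ko, GDF5 fell by −1.20 (SE 0.176, adjusted p = 0.000317), while GDF6, a close relative, rose from 6.70 and 7.18 to 23.9 and 25.4 RPKM (1.76, SE 0.156, adjusted p = 8.949e-06). GDF15, a stress-induced member of the wider family, fell in MDA-MB-231 MEK5DD (−1.45, SE 0.208, adjusted p = 0.000189). In ERK5-ko it was called higher (9.76 and 9.21 to 13.3 and 20.03 RPKM, 0.75, SE 0.208, adjusted p = 0.0291), a value named after it was seen.

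Follistatin's classical partner activin A is made from INHBA, which in Hs-578T was at 38.5 and 42.6 RPKM in parental cells, 90.6 and 105 in ERK5-ko and 79.6 and 104 in MEK5DD. It rose in both, by 1.26 (SE 0.151, adjusted p = 7.726e-05) and 1.16 (SE 0.151, adjusted p = 0.000375), whereas FST was called in ERK5-ko alone, and a difference between these gene patterns was not tested. In MDA-MB-231, where FST also rose in ERK5-ko, INHBA was low. It was at 0.6495 and 0.6846 RPKM in parental cells, 0.8956 and 0.643 in ERK5-ko (adjusted p = 0.677) and 0.2719 and 0.3859 in MEK5DD. Of 14 tested antagonists and modulators, 3 were called higher (CRIM1, CHRD and BMPER, named after their values were seen) and 2 lower (HTRA1 and NBL1) in Hs-578T ERK5-ko, where 12.6% of all tested genes were called. CRIM1, a membrane protein that binds BMPs, rose from 180.0 and 230.5 to 388 and 425 RPKM (0.99, SE 0.182, adjusted p = 0.00135). HTRA1, a secreted protease, fell from 157 and 164 to 36.4 and 29.8 RPKM (−2.27, SE 0.103, adjusted p = 5.305e-08) and NBL1, a BMP antagonist related to gremlin, from 230.0 and 243 to 91.2 and 75.6 RPKM (−1.504, SE 0.103, adjusted p = 1.386e-06). CHRDL1, a chordin-like BMP antagonist, rose in MEK5DD in both lines, from 0.571 and 0.555 to 8.96 and 7.75 RPKM in MDA-MB-231 (3.06, SE 0.144, adjusted p = 2.502e-08) and from 2.12 and 2.47 to 6.44 and 4.64 RPKM in Hs-578T (1.10, SE 0.144, adjusted p = 0.000389). RGMB, a BMP co-receptor, rose in MDA-MB-231 MEK5DD (1.59, SE 0.127, adjusted p = 1.881e-06). HTRA1 fell there as well (−1.28, SE 0.103, adjusted p = 2.065e-06).

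Of 11 tested genes listed as other BMP-responsive genes, mostly developmental transcription factors, 7 were lower in Hs-578T MEK5DD than in parental cells at an adjusted p under 0.05 and none higher (median log2 fold change −0.51, against −0.08 over all tested genes, 23.4% of which passed in either direction). Only HEY2, a Notch and BMP target, was past the fold limit (−1.32, SE 0.121, adjusted p = 3.232e-05). Replicates differed most in these Hs-578T parental and MEK5DD groups, while the fit shares 1 spread over all 12 libraries. With only the Hs-578T libraries fitted, 900 of all tested genes passed in this comparison, against 3213 in the main fit. How many of the 11 pass in that fit is not given here. Between ERK5-ko and MEK5DD in Hs-578T, 8 of the 11 were called higher in ERK5-ko and none lower (median 0.76, against 0.09 over all tested genes, of which 15.3% were called higher). GATA2, a haematopoietic factor, gave the largest of these differences among genes of at least 1 RPKM (1.08, SE 0.126, adjusted p = 3.662e-05). Between ERK5-ko and parental Hs-578T cells, 1 of the 11 was called, where 12.6% of all tested genes were called. It was GATA3, which rose from 3.77 and 4.76 to 9.21 and 9.34 RPKM (1.04, SE 0.134, adjusted p = 0.000126). In MDA-MB-231 the list was mixed: in ERK5-ko, ATOH8, a helix-loop-helix factor, rose from 0.709 and 0.745 to 4.19 and 3.70 RPKM (1.86, SE 0.114, adjusted p = 2.128e-06) and HES1, a repressor in Notch signalling, fell from 7.18 and 7.36 to 2.27 and 1.96 RPKM (−1.58, SE 0.124, adjusted p = 1.391e-05). Of the 3 E proteins that ID proteins bind, TCF4 alone was called against parental cells, rising in Hs-578T MEK5DD from 22.5 and 28.9 to 47.1 and 54.4 RPKM (0.98, SE 0.142, adjusted p = 0.000747).

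**Figure D4:**
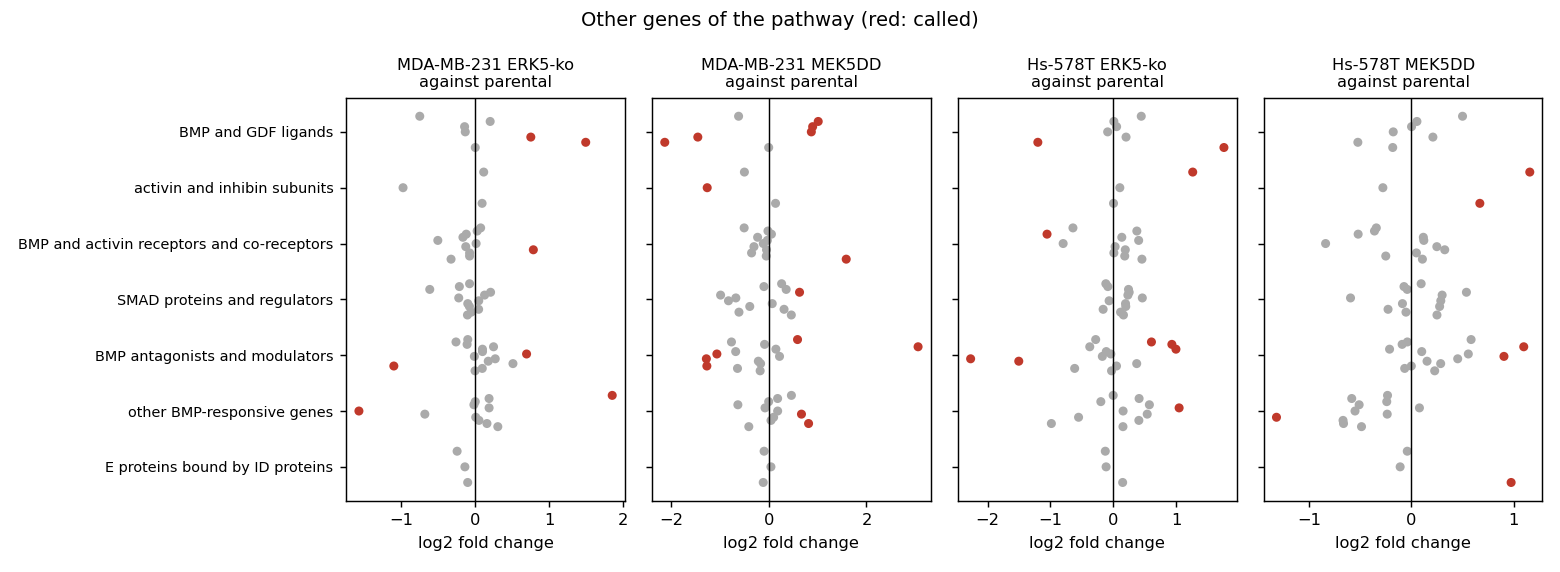
Log2 fold change of the 61 tested genes of the 7 pathway lists in the 4 comparisons with parental cells, with 1 row of points per list and axes of different range. Red points are called (adjusted p under 0.05 and fold above 1.5 or below 0.5). In Hs-578T MEK5DD, nearly all of the 11 BMP-responsive genes lie left of 0 and 1 of them is called.

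The genes whose pattern over the 12 libraries was nearest to each of the 7 were sought among 12423 tested genes with a mean of at least 1 RPKM, by the root mean square difference of centred log2(RPKM + 0.5). UBE2C was nearest to ID1 (0.187, where ID1 itself spread by 0.973 about its mean) and SPC24 next (0.211). RYK was nearest to SMAD6 (0.154, own spread 0.789), TNFAIP2 to BMP4 (0.238, own spread 1.60) and MEIS1 to BMP2 (0.259, own spread 1.47). C8orf88 was nearest to ID2 (0.292, own spread 2.87), DOK5 to ID3 (0.297, own spread 2.57) and KRT18 to FST (0.344, own spread 0.936). The 12 points share cell lines and libraries, so these are descriptions only.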

How the data were processed

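The 12 RNA sequencing libraries, from MDA-MB-231 and from Hs-578T, were put into 6 groups by their sample titles. RNA came from subconfluent cells and the library kit was a stranded one for mRNA. The authors deposited 1 table of RPKM per gene. Their processing notes name bcl2fastq, Trimmomatic 0.32, TopHat2 2.1.1, R 3.3.1, DESeq2 1.12.4 and GRCh38, and the counting program, its strand setting and the annotation are not given in the sources used here. Columns of the authors' own comparisons were not used.

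From the deposited RPKM, log2(RPKM + 0.5) of the 13737 protein coding genes that reached 0.5 RPKM in 2 or more libraries was fitted with limma 3.58.1 (R 4.3.3), with 6 group means, a trended prior and 6 residual degrees of freedom. Benjamini-Hochberg adjustment ran over all tested genes within each of 9 comparisons. Calls required a fold above 1.5 or below 0.5 as well as an adjusted p under 0.05, the study's thresholds. Fold changes are on the log2(RPKM + 0.5) scale and understate changes of low genes, and ratios of mean RPKM are given beside them.

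RPKM values were whole multiples of 1 read in all of 32152 genes (100.0%, tolerance 0.01 reads), which gave reads per gene and library totals. With library totals set 1% off and gene lengths held, 0 of 500 genes came out whole. Whole reads scaled by 1% are almost never whole in every library, so this outcome was fixed beforehand and does not test the recovery. Intervals and floors cover counting error only, since no molecular identifiers were used. Replicate libraries are neighbouring passages, so p-values measure the spread between these libraries, which may be technical, and an exact permutation test of 2 against 2 cannot go below 0.333.

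Replicate numbers were checked for pairing: the deviations of same-numbered libraries from their group means correlated by 0.107 to 0.541 across 6 within-line pairs of groups (13737 genes). The value of 0.541 was between Hs-578T parental and MEK5DD cells, and the other pairs gave at most 0.187. Replicate numbers were therefore also fitted as a block, although no label says that same-numbered libraries were handled together.

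The 9 genes and the pathway lists were chosen with earlier results of these data known. All 9 genes are given, with fold changes where the adjusted p was under 0.05. Genes of the lists are named where called, at most the 3 largest in each direction with a mean of at least 1 RPKM. GDF15 in MDA-MB-231 ERK5-ko and CRIM1, CHRD and BMPER in Hs-578T ERK5-ko are named beyond that rule. Receptors, SMADs and NOG are given as levels. Promoters are from RefSeq (GRCh38.p14). Python 3.11.15 was used for summaries.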

Additional observations from a re-analysis of the deposited data

Results flagged for a closer look

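Changes that differed between the lines, by a test of the difference itself in limma (change in MDA-MB-231 minus change in Hs-578T, on the log2 scale), passed an adjusted p of 0.05 for 3 of the 7 genes in ERK5-ko, where 39.8% of all tested genes passed. The difference was −1.20 for ID1 (SE 0.229, adjusted p = 0.00179), which was lower than parental cells in both MDA-MB-231 libraries and higher in both Hs-578T libraries. It was 0.78 for BMP4 (SE 0.136, adjusted p = 0.00103) and −1.30 for FST (SE 0.154, adjusted p = 7.896e-05), FST having risen in both lines.

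For MEK5DD, 6 of the 7 genes passed by the adjusted p alone, where 39.6% of all tested genes passed, and FST was not past the fold limits. The difference was 1.18 for ID1 (SE 0.229, adjusted p = 0.00188), 1.24 for ID2 (SE 0.283, adjusted p = 0.00506), 1.22 for BMP2 (SE 0.159, adjusted p = 0.000128) and 0.63 for SMAD6 (SE 0.230, adjusted p = 0.0484). It was −1.58 for BMP4 (SE 0.136, adjusted p = 6.466e-06), which was lower than parental cells in both MDA-MB-231 libraries and higher in both Hs-578T libraries, and −0.91 for FST (SE 0.154, adjusted p = 0.000797). That of BMP2 ranged from 0.63 to 5.04 over the alternatives, because BMP2 was near 0 in MDA-MB-231 and its value depends on the pseudocount, and that of ID2 rests on 6 to 30 reads a library in MDA-MB-231. That of SMAD6 ranged from 0.43 to 0.83. It did not pass with a pseudocount of 0.1, no filter on low values, median-ratio scaling, all gene types or the recovered reads, nor without most single libraries.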

How the results depend on the processing

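Over 23 alternatives, the 43 log2 fold changes with an adjusted p under 0.05 kept their direction in all 930 values, 849 of which stayed under that threshold and 81 did not, and 31 of the 43 stayed under it throughout. Without the fold limits, the number of the 7 genes passing against parental cells was 2 in Hs-578T ERK5-ko (1 with them), 5 in MDA-MB-231 MEK5DD (3 with them) and 5 in Hs-578T MEK5DD (2 with them), and over all genes the counts grew from 532 to 2379 (MDA-MB-231 ERK5-ko), 1734 to 5413 (Hs-578T ERK5-ko), 1916 to 5673 (MDA-MB-231 MEK5DD) and 602 to 3213 (Hs-578T MEK5DD). They grew from 3242 to 7552 and from 2651 to 6866 for ERK5-ko against MEK5DD in MDA-MB-231 and Hs-578T, from 2837 to 5466 and 3045 to 5438 for the differences between lines in ERK5-ko and MEK5DD, and from 6801 to 10629 between parental lines. Leaving out 1 library at a time gave 1 to 2 called genes in Hs-578T ERK5-ko, the higher count, with ID1, without the first parental library. In an alternative chosen after seeing the data, limma voom on the recovered reads called 780, 2305, 2440 and 911 genes in the same 4 comparisons with parental cells. BMP2 in MDA-MB-231 MEK5DD rose by 1.37 with a pseudocount of 1, by 3.84 with 0.1 and by 5.95 with voom.

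The replicate block, which treats same-numbered libraries of a line as paired although no label says so, changed no fold call among the 7 genes. It took the adjusted p past the threshold for BMP4 in Hs-578T ERK5-ko (0.0471) and ID3 in Hs-578T MEK5DD (0.0428). With 2 libraries a group and fewer than 50 reads, ID2 in MDA-MB-231, ID4 and GREM1 could not show small differences.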
